A study of Mus musculus with 6 samples.

Results

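Transcripts of 6 CC chemokine genes, Ccl2, Ccl5, Ccl7, Ccl17, Ccl20 and Ccl25, were followed in cultured 4T1 cells, an epithelial tumor line from mouse breast carcinoma. Members were taken by gene symbol from the deposited table of 24421 genes, and all 6 were found. Every library came from 4T1-tetL1(GLucAI) cells (strain label BALB/cfC3H), a blasticidin-selected population rather than a single clone. All of these cells carry a cassette in which doxycycline, through a constitutively made Tet-On transactivator, turns on firefly luciferase together with a recoded mouse LINE-1 (L1) retrotransposon bearing a Gaussia luciferase readout. One group of 3 libraries came from untreated cells, whose treatment tag reads vehicle. The other group of 3 libraries carries the label of a 48 h doxycycline exposure, at 400 ng/mL. The comparison asks whether turning on L1 alters inflammatory signalling, here through its chemokine output. Both groups carry the cassette and no doxycycline-exposed 4T1 cells without it were analysed here, so effects of the drug and of L1 cannot be told apart. The cassette transcript, which would check the labels, was not analysed here, and the second group is therefore called the libraries labelled doxycycline.

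CC chemokines are small secreted proteins, named for a pair of adjacent cysteines, that guide leukocytes by binding G protein-coupled receptors on those cells. Carcinoma cells often make them, and Ccl2 and Ccl5 in particular are known for drawing monocytes and T cells into breast tumors. Transcription of Ccl2, Ccl5 and Ccl20 is classically driven by NF-κB, a factor that binds DNA elements called κB sites.

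Library totals ranged from 31653464 to 43631312 counts, and the ranges of both groups overlapped. Values are given as raw counts and as CPM, that is counts divided by TMM-scaled library totals and put on a common scale, on which 3 counts equal 0.0683 to 0.0944 CPM depending on the library. The ribosomal precursor Rn45s took 8.83 to 12.1% of counts, with overlapping groups (log2 difference 0.14, edgeR adjusted p = 0.647). Epithelial markers were at a summed 1810 to 1897 CPM in untreated libraries and 1755 to 1986 CPM in libraries labelled doxycycline, with Krt5 at 0. Of 9 myeloid markers, 6 had counts, led by Cd68 at 9.90 and 9.52 CPM in the group means, while Adgre1, C1qa and C1qb had no count in any library. The study calls the replicates biological, but the labels do not say that they were separate cultures, so p-values measure only the spread between these libraries, and in bulk RNA fewer cells of a type and less RNA per cell cannot be told apart.

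The promoter of Ccl20 is shown because it was the only one, among the members with a RefSeq promoter window (3 of 6: Ccl17, Ccl20 and Ccl25), that held any motif searched. The window runs from 250 bases before to 50 bases after the start of the gene, at chr1:83116516-83116815 of GRCm38 on the plus strand, and the capitals mark the match to the κB motif.
Ccl20 promoter: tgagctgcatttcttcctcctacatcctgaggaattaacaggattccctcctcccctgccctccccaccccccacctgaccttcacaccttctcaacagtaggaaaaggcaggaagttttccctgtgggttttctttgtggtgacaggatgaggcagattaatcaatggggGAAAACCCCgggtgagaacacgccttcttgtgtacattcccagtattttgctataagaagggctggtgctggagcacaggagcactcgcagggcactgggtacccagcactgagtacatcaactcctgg
The motif letters were GGGNNTTTC, searched on both strands, and the match lay on the minus strand 79 bases upstream of the start. That motif occurred in 4.36% of all 32851 windows of this length. The AP-1 motif TGANTCA (7.81% of windows) and the paired IRF motif AAANNGAAA (10.6% of windows) had no match in the windows of Ccl17, Ccl20 or Ccl25. For Ccl25, windows at chr8:4324960-4325259 and chr8:4349338-4349637 were searched. The window of Ccl17 (chr8:94810203-94810502) lay inside the gene span given below, so the start of that span was not searched. Motif matches are letters in a reference sequence, and binding was not measured.

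Ccl5, Ccl20 and Ccl2 were the abundant CC chemokines of these cells, and the other 3 members were present at traces or low levels. Levels between genes were compared as CPM per kilobase of exon, the union of all annotated exons. Ccl5 stood highest, with a mean of 16.3 CPM per kilobase over all libraries (range 13.9 to 18.9). Ccl20 followed at 9.66 (7.94 to 11.8) and Ccl2 at 9.26 (6.91 to 12.0) CPM per kilobase, and the ranges of this pair overlapped. Ccl25 reached 0.510 CPM per kilobase (0.448 to 0.558). Ccl7 at 0.327 (0.225 to 0.471) and Ccl17 at 0.297 (0.143 to 0.428) CPM per kilobase could not be ordered by their ranges, and the highest library of Ccl7 overlapped the lowest of Ccl25. The order rests on the length used: with the length of the longest coding transcript, Ccl2 at 13.0 CPM per kilobase stood above Ccl20 at 9.68, Ccl5 was at 29.4 and Ccl25 at 3.59.

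**Figure D1:**
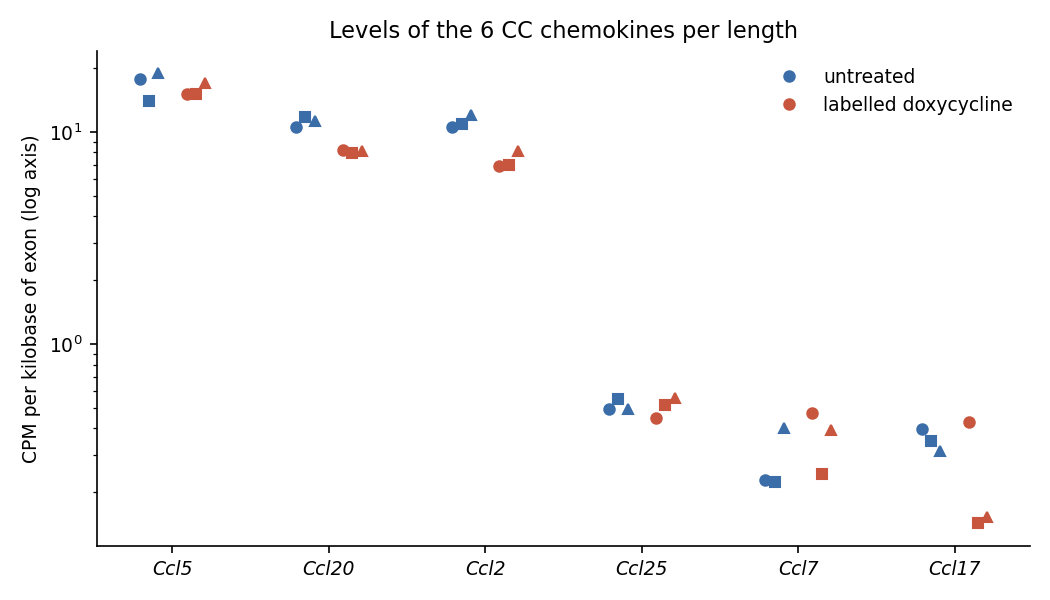
Level of each of the 6 CC chemokine genes in every library, in CPM per kilobase of union exon on a log axis; circles, squares and triangles are replicates 1, 2 and 3, and colours are the groups. Ccl5 has the highest mean (16.3), Ccl20 and Ccl2 overlap, and Ccl25, Ccl7 and Ccl17 all lie below 1 CPM per kilobase.

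Of the 5 members that passed the filter on low counts, 2 fell in the libraries labelled doxycycline, Ccl2 and Ccl20, and 0 rose. Ccl17 did not pass the filter. Across all 13084 genes tested with edgeR, 3.09% were called in either direction and 2.16% were called lower. The median log2 fold change was -0.10 over these 5 members and 0.002 over all genes tested. Groups did not overlap for Ccl2 and Ccl20, a pattern found in 21.3% of all genes tested.

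**Figure D2:**
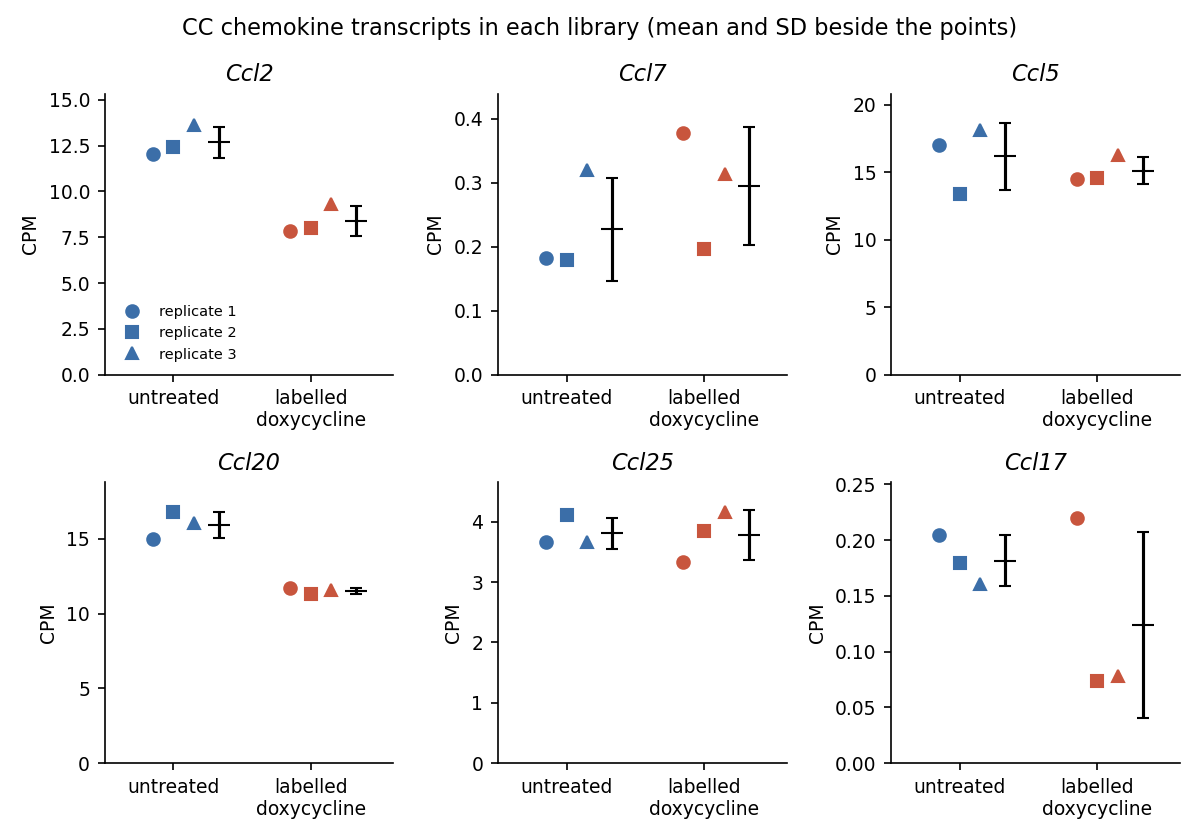
CPM of each of the 6 CC chemokine genes in every library on linear axes that start at 0, with the group mean and SD (n = 3) beside the points. For Ccl2 and Ccl20 every library labelled doxycycline lies below every untreated one, whereas the groups overlap for Ccl5, Ccl7, Ccl25 and Ccl17.

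Ccl2, the monocyte attractant that signals through Ccr2, lies on chromosome 11 (82035577 to 82037452, plus strand, GRCm38) and its coding transcript has 3 exons. Its counts were 528, 414 and 511 in untreated replicates 1 to 3, and 250, 326 and 356 in doxycycline replicates 1 to 3. In CPM these were 12.0, 12.4 and 13.6 against 7.86, 7.98 and 9.30. Every untreated library stood above every library labelled doxycycline. The group means were 12.7 ± 0.847 and 8.38 ± 0.797 CPM (SD, n = 3), so that Ccl2 was 1.51 times as high without doxycycline. The log2 fold change was -0.60 (95% interval -0.82 to -0.37, SE 0.11, edgeR adjusted p = 0.00236). Among the members it had the lowest fold change. In the GENCODE annotation, Gm17268 on the minus strand overlaps Ccl2 by 1883 bases but shares 0 exon bases with it.

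Ccl7 shares Ccr2 with Ccl2 and also attracts monocytes. It is the next gene on the same strand (82045712 to 82047525), beginning 8259 bases after the end of Ccl2 with no RefSeq gene between. It was near the detection limit, with 8, 6 and 12 counts in untreated replicates and 12, 8 and 12 counts in those labelled doxycycline. The CPM values were 0.182, 0.180 and 0.320 against 0.377, 0.196 and 0.313, so the groups overlapped. Summed over libraries, 26 counts (exact Poisson 95% interval 17.0 to 38.1) stood against 32 (21.9 to 45.2), intervals that cover counting error only. The log2 fold change of Ccl7 was 0.35 (95% interval -0.76 to 1.47, SE 0.54, edgeR adjusted p = 0.809). That interval includes the change measured for Ccl2, so at this depth such a change of Ccl7 was not detectable.

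Ccl20, the ligand of Ccr6 that attracts Th17 cells and immature dendritic cells, lies on chromosome 1 (83116766 to 83119167, plus strand, 3 coding-transcript exons) just behind the promoter printed above. It had 659, 559 and 600 counts in untreated replicates 1 to 3, and 372, 461 and 442 counts in doxycycline replicates 1 to 3. The CPM values were 15.0, 16.8 and 16.0 against 11.7, 11.3 and 11.5. The libraries labelled doxycycline lay close together and all below the lowest untreated library. Means were 15.9 ± 0.879 and 11.5 ± 0.207 CPM (SD, n = 3), a level 1.38 times as high without doxycycline. Ccl20 fell by 0.47 on the log2 scale (SE 0.09), with an edgeR adjusted p of 0.00542.

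Ccl5 (RANTES), which attracts T cells, monocytes and eosinophils, lies on chromosome 11 (83525778 to 83530518, minus strand, 3 coding-transcript exons). Its counts were 747, 446 and 680 in untreated replicates, and 462, 595 and 623 in those labelled doxycycline. The CPM values were 17.0, 13.4 and 18.2 against 14.5, 14.6 and 16.3. Untreated replicate 2 was the lowest of all libraries and untreated replicate 3 the highest, and the groups overlapped. Means were 16.2 ± 2.50 and 15.1 ± 0.995 CPM (SD, n = 3), with a log2 fold change of -0.10 (SE 0.11, 95% interval -0.32 to 0.12, edgeR adjusted p = 0.701). Without untreated replicate 2 the fold change was -0.21 and without untreated replicate 3 it was -0.01, and neither passed the threshold.

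Ccl25, the thymic and intestinal chemokine that signals through Ccr9, lies on chromosome 8 (4325205 to 4360020, plus strand) with 6 exons in its coding transcript. Its counts were 161, 137 and 137 in untreated replicates, and 106, 157 and 159 in those labelled doxycycline. The CPM values were 3.67, 4.11 and 3.66 against 3.33, 3.84 and 4.15, and the libraries of the groups were interleaved. Means were 3.81 ± 0.257 and 3.78 ± 0.414 CPM (SD, n = 3). The log2 fold change was -0.006 (95% interval -0.34 to 0.33, SE 0.16, edgeR adjusted p = 0.988). Its exons share 204 bases with Elavl1 on the opposite strand, an RNA-binding protein gene at 274 ± 11.4 and 275 ± 21.9 CPM (SD, n = 3), and the strand setting of the counting is not given in the sources used here, so reads of Elavl1 within those bases could stand in the count of Ccl25.

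Ccl17, the ligand of Ccr4 that attracts Th2 and regulatory T cells, lies on chromosome 8 (94809380 to 94812038, plus strand, 3 coding-transcript exons). It had 9, 6 and 6 counts in untreated replicates and 7, 3 and 3 in those labelled doxycycline. In CPM the values were 0.205, 0.180 and 0.160 against 0.220, 0.0735 and 0.0784, and doxycycline replicate 1 stood with the untreated libraries. The summed counts were 21 (exact Poisson 95% interval 13.0 to 32.1) and 13 (6.92 to 22.2), which overlapped. A fit without the filter on low counts, added after the data were seen, gave Ccl17 a log2 difference of -0.59 with an SE of 0.90 (edgeR adjusted p = 0.813 over 17661 genes).

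**Figure D3:**
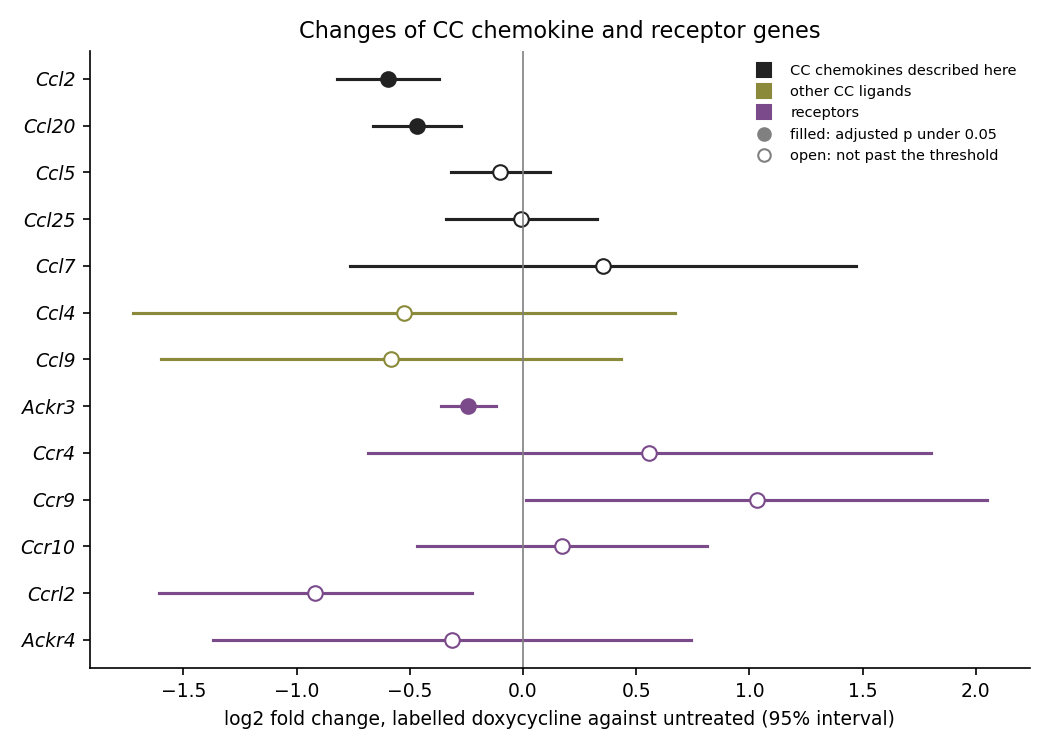
Log2 fold change with its 95% interval for every tested CC chemokine ligand and receptor gene, filled where the edgeR adjusted p passed 0.05. Ccl2 (-0.60) and Ccl20 (-0.47) lie left of 0 with narrow intervals, Ccl5 and Ccl25 sit near 0, and the low-count genes have wide intervals.

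Ratios of counts within a library need no scaling and were compared for the 4 members above 1 CPM, in 6 pairs. With 3 libraries against 3 the exact two-sided permutation test cannot give a p under 0.1, which becomes 0.15 after adjustment over the 6 pairs. The Ccl2 to Ccl5 count ratio was 0.707, 0.928 and 0.751 in untreated replicates and 0.541, 0.548 and 0.571 in those labelled doxycycline, a difference of -0.51 on the log2 scale with no overlap (exact permutation p = 0.1). Ccl2 to Ccl25 differed by -0.58 and Ccl20 to Ccl25 by -0.45, both without overlap and at the same smallest p. The Ccl5 to Ccl20 ratio was higher in each library labelled doxycycline (1.24, 1.29 and 1.41) than in any untreated one (1.13, 0.798 and 1.13). The ratio of Ccl2 to Ccl20 overlapped, at 0.801, 0.741 and 0.852 against 0.672, 0.707 and 0.805 (exact permutation p = 0.3). Ccl5 to Ccl25 also overlapped (exact permutation p = 0.8). The 4 ratios of Ccl2 or Ccl20 with Ccl5 or Ccl25 separated the groups in the direction of lower Ccl2 and Ccl20. Their p is one that this design cannot bring past the threshold. These ratios reuse the counts tested above and are not separate evidence.

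All 6 members summed to 47.0 to 52.0 CPM in untreated libraries and 38.0 to 41.7 CPM in those labelled doxycycline. They held 96.7 to 98.4% of all CC ligand CPM in each library, but they were chosen with earlier results of these data known. As shares of the member sum, Ccl2 went from 25.0 to 26.4% of it in untreated libraries to 20.7 to 22.3%, and Ccl5 from 28.4 to 35.4% to 38.2 to 39.1%, shares that move together because they add to a fixed whole. Over the 6 libraries, log2 CPM of Ccl2 and Ccl20 correlated with a Pearson r of 0.946, a description over libraries that share the group difference. The corresponding r was 0.434 for Ccl2 and Ccl5 and 0.169 for Ccl5 and Ccl20.

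Genes with the profile most like each member were ranked by Pearson r of log2 CPM over the 6 libraries, as a description. For Ccl2 they were Txnip (r = 0.998), Insig2 (0.993), Tpd52l1 (0.992), Ddt (0.991) and Rnd3 (0.990). For Ccl20 they were Bcl6 and Ahr (both 0.996), Id2 and Scrn2 (both 0.994) and Cyp1b1 (0.992). Among the genes most like Ccl5 were Prkd2 (0.987), Tmem131 (0.981), Tnfrsf1a (0.978) and F11r (0.974). Ccl25 was most like Dnase1 and Ccdc88b (both 0.989), Wdr7 (0.983), Pdzd7 (0.970) and Gpc4 (0.969). With 6 libraries and 13084 genes, high values of r arise readily, and of the genes named for Ccl2 and Ccl20, Txnip, Rnd3, Ahr, Id2 and Cyp1b1 were themselves called lower while the others were not called.

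The rest of the CC ligand family had no or few counts. Over all libraries Ccl9 totalled 111 counts and Ccl4 67, above the members Ccl7 at 58 and Ccl17 at 34. Of 18 other ligand genes, 12 had no count in any library and 2 passed the filter on low counts, and neither of those was called (0 also at an unadjusted p under 0.05). Ccl9, a macrophage-attracting chemokine, had 29, 20 and 18 counts in untreated replicates and 4, 30 and 10 in those labelled doxycycline (log2 fold change -0.58, edgeR adjusted p = 0.605). Ccl4, a macrophage inflammatory protein, had 8, 10 and 22 counts against 6, 5 and 16 (-0.53, edgeR adjusted p = 0.711). Ccl6 had 11, 2 and 5 counts against 2, 12 and 10 and was not tested. The Ccl21 and Ccl27 genes stand in near-identical copies, whose reads the counting could lose, so their 0 counts are uncertain.

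Receptors for the abundant members had no or few counts, and those named here for that pairing were picked after their values were seen. Ccr2 and Ccr6, which bind Ccl2 and Ccl20, had 0 counts in every library, below 0.0683 to 0.0944 CPM. Ccr1, which binds Ccl5 among others, summed to 10 counts over all libraries. Ccr9, the Ccl25 receptor, had 6, 7 and 14 counts in untreated replicates and 16, 16 and 22 in those labelled doxycycline. Its CPM did not overlap between groups, a pattern found in 21.3% of all genes tested. Of the untreated libraries only replicate 3 stood above the filter minimum of 0.264 CPM, so Ccr9 was tested through the libraries labelled doxycycline. Its log2 difference of 1.03, with an SE of 0.49, did not pass the test (edgeR adjusted p = 0.300). Ccr4, the Ccl17 receptor, had 12, 3 and 6 counts against 4, 12 and 14 (0.56, edgeR adjusted p = 0.706).

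Over all genes tested 2.16% were called lower, and of 17 receptor genes, 6 were tested and 1 fell. That gene was Ackr3, an atypical receptor of CXC rather than CC chemokines, at 66.1 ± 2.72 CPM in untreated libraries and 55.9 ± 2.31 CPM (SD, n = 3) in those labelled doxycycline (log2 difference -0.24 with an SE of 0.06, edgeR adjusted p = 0.0213). The Ackr3 call was lost without untreated replicate 2 (adjusted p = 0.109), untreated replicate 3 (0.168) or doxycycline replicate 3 (0.136). Ccrl2, which binds chemerin, had 60, 38 and 72 counts against 16, 46 and 26 (-0.92, SE 0.33, edgeR adjusted p = 0.155), and it passed only when doxycycline replicate 2 was left out (-1.31, adjusted p = 0.0253). Ccr10 had 35, 33 and 33 counts against 37, 39 and 34 (0.17, edgeR adjusted p = 0.844).

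Among 14 genes for factors known to act on chemokine promoters, 2 fell and 0 rose, where 2.16% of all genes tested were called lower. Their median log2 fold change was 0.04, with 6 of the 14 below 0. Nfkbia, an inhibitor of NF-κB and itself a κB target, fell from 60.5 ± 1.26 to 48.0 ± 3.99 CPM (SD, n = 3; log2 fold change -0.33, edgeR adjusted p = 0.00364). Cebpb, a bZIP factor of inflammatory genes, fell from 55.7 ± 2.79 to 47.5 ± 2.36 CPM (SD, n = 3; -0.23, edgeR adjusted p = 0.0400). The Cebpb call was lost without untreated replicate 1 (adjusted p = 0.231), 2 (0.139) or 3 (0.0724), or without doxycycline replicate 3 (0.198), and also after thinning to the smallest library (0.0732) and under the GC content and length correction (0.0624). Rela, the transactivating NF-κB subunit, was at 65.0 ± 2.39 and 63.4 ± 1.95 CPM (SD, n = 3), a log2 fold change of -0.03 (edgeR adjusted p = 0.825). The other NF-κB subunit genes were not called. Of them, Nfkb2 (0.13, edgeR adjusted p = 0.266), Relb (0.22, 0.324) and Rel (0.16, 0.381) had positive fold changes and Nfkb1 (-0.08, 0.403) a negative one.

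Markers of other cell types that could bring chemokine RNA were examined beside Ccl2 and Ccl20. The 9 myeloid markers summed to 9.81 to 12.1 CPM in untreated libraries and 9.33 to 11.6 CPM in those labelled doxycycline, nearly all of it Cd68, and 0 of the 2 tested were called by edgeR (0 also at an unadjusted p under 0.05). Lymphoid markers summed to 0.0228 to 0.0899 against 0.131 to 0.441 CPM, higher in every library labelled doxycycline. Most of this was Cd79a, with 4 counts in untreated libraries and 18 in those labelled doxycycline, and Cd8a, with 3 and 8. Cd3d, Cd2 and Ms4a1 were at 0, and no lymphoid marker passed the filter on low counts. Endothelial markers summed to 0.319 to 0.809 against 0.294 to 0.888 CPM. The 6 fibroblast markers summed to 35.7 to 38.7 CPM in untreated libraries and 28.0 to 29.6 CPM in those labelled doxycycline, and of the 3 tested only Pdgfra was called. Pdgfra made up nearly all of the sum and fell (36.7 ± 1.37 to 27.8 ± 0.669 CPM, SD, n = 3; log2 fold change -0.40, edgeR adjusted p = 0.000952). Col1a2 had 44 counts in untreated libraries and 66 in those labelled doxycycline (0.65, edgeR adjusted p = 0.540), Col1a1 had 46 and 28, and Lum was at 0. Of 7 epithelial markers tested, 2 had a log2 fold change below 0, and the median was 0.016. Only Krt19 was called, and it fell (-0.31, edgeR adjusted p = 0.00782), a call lost without untreated replicate 2 or doxycycline replicate 3. The part of these markers in the fall of Ccl2 and Ccl20 was not tested.

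The falls of Ccl2 and Ccl20 passed the threshold in all 18 alternative fits, which changed the scaling, filter, tool, depth, composition correction or the set of libraries. The log2 fold change of Ccl2 ranged from -0.68 to -0.54 over them and that of Ccl20 from -0.51 to -0.41. The largest adjusted p values were 0.0354 for Ccl2 and 0.0475 for Ccl20, the latter without untreated replicate 2. Calls near the threshold are less sure than nominal, because on simulated data the share of calls that were unchanged genes exceeded that level.

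**Figure D4:**
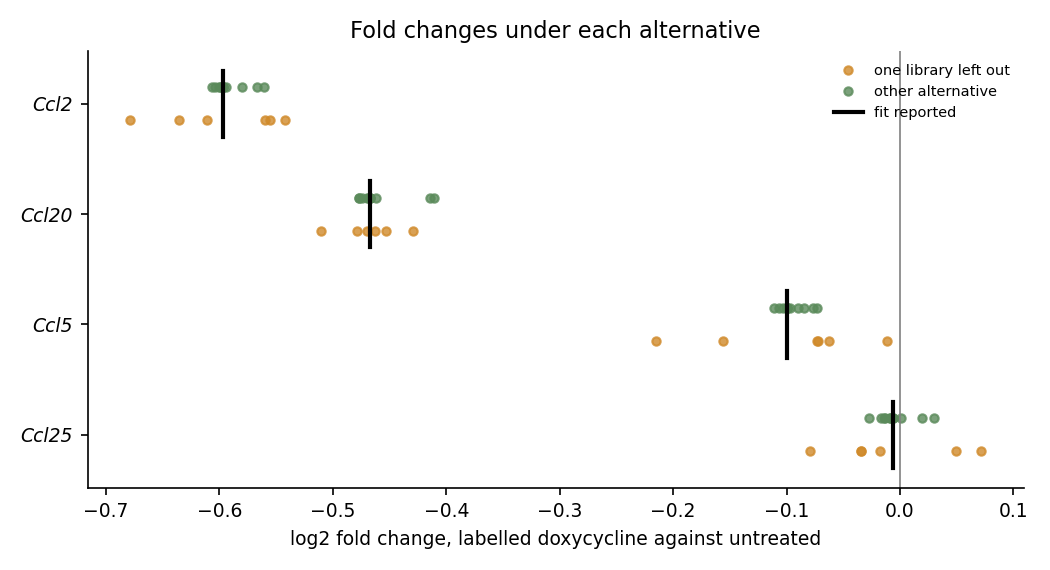
Log2 fold change of Ccl2, Ccl20, Ccl5 and Ccl25 under each of 18 alternative fits (points, split into fits with 1 library left out and the others) and in the fit reported (bar). Ccl2 and Ccl20 stay between -0.68 and -0.41, whereas Ccl5 reaches -0.01 and Ccl25 lies on both sides of 0.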

How the data were processed

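Total RNA of 6 samples was depleted of ribosomal RNA and made into libraries with a strand-preserving dUTP kit. Per the submitters' processing notes, reads were demultiplexed with bcl2fastq 2.20, aligned by STAR to mm10/GRCm38 and counted per gene with featureCounts (Subread 1.6.2). The authors deposited raw counts with no normalization. The strand setting, the handling of reads with several places and the STAR version are not given in the sources used here. In each library more genes had 2 counts (678 to 762) than 1 (379 to 442), so single counts need not be independent fragments and counting intervals may be too narrow. All 6 columns were matched to samples by library code, and 0 were left unmatched. Of 24421 genes, 6760 had no count.

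Groups came from the sample titles. The quasi-likelihood test of edgeR 4.0.16 (R 4.3.3, robust, TMM) was fitted with the group as the only term to the 13084 genes kept by filterByExpr (minimum 0.264 CPM), with Benjamini-Hochberg adjustment at 0.05. Log2 fold changes set doxycycline-labelled over untreated libraries, and SE is the absolute fold change over the root of F. Count ratios were compared by exact two-sided permutation. The named genes were the 6 members, any CC ligand or receptor past the test or otherwise the 3 of each with the highest mean CPM, the 5 tested genes most correlated with each member of at least 1 CPM, listed factors past the test with Rela and Nfkbia, Rn45s and cell type markers. Not every gene this rule takes is reported here, and the other NF-κB subunit genes were added after the data were seen. Members and lists were chosen with earlier results of these data known. Coordinates and promoters are RefSeq on GRCm38, and exon lengths and overlaps are GENCODE M21.

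Alternatives were DESeq2 size factors, upper quartile and library size scaling, a filter switched off or raised to 10 counts per library, a replicate block, omission of single libraries, the Wald test of DESeq2 1.42.0, voom of limma 3.58.1, removal of Rn45s, depth thinning to the smallest library, and loess correction for GC content and length (99.3% of tested genes had values). That correction with the block, coding transcript length and the unfiltered fit of Ccl17 were added after the data were seen. Replicate pairs differed by more than sampling noise (chi-square per degree of freedom 6.14 to 22.06). On simulated data, the share of calls that were unchanged genes was above the nominal level.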

Additional observations from a re-analysis of the deposited data

How the results depend on the processing

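Ccl2 and Ccl20 stayed lower and past the threshold, and Ccl5 stayed short of it, in all 18 alternatives. Leaving out single libraries gave log2 fold changes of -0.68 to -0.54 for Ccl2, -0.51 to -0.43 for Ccl20, -0.21 to -0.01 for Ccl5, -0.080 to 0.071 for Ccl25 and 0.16 to 0.67 for Ccl7. Ccl25, whose fold change was near 0, also turned positive under the GC content and length correction (0.030), voom (0.00051) and the block with that correction (0.020). The cause was not tested. Ccl7 got no value under the filter of at least 10 counts or after thinning, and DESeq2 gave it no adjusted p. The count of other ligands called was 0 throughout, and that of receptors was 0 to 2 when single libraries were left out. Over all genes, 121 rose and 283 fell, against 210 and 439 without a filter, 371 and 477 with the GC content and length correction, and 314 and 439 with that correction and the block. Leaving out single libraries gave 44 to 269 higher and 116 to 487 lower genes, lowest without untreated replicate 3. Replicate numbers did not pair the libraries: same-numbered deviations correlated at -0.040, -0.004 and 0.018, and untreated replicate 1 correlated best with doxycycline replicate 2. With the replicate number as a block, 118 genes rose and 300 fell, with Ccl2 at -0.60 and Ccl20 at -0.47, Ccl5 at -0.09, Ccl25 at -0.01 and Ccl7 at 0.38. Depth limits Ccl7 and Ccl17, whose counts were at most 12 in a library.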
